A study of Mus musculus with 2 samples.

Results

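The suppressors of cytokine signalling (SOCS) are a gene family of feedback inhibitors, and its 8 mouse genes, Socs1 to Socs7 and Cish, were described here in osteoblasts exposed to factors from prostate cancer cells. The members were all probe sets that the platform annotation assigned to a single one of these symbols. This gave 24 probe sets, and each of the 8 genes had at least 1, among 18193 genes with a probe set in all. The question of the study was which osteoblast transcripts respond to factors secreted by prostate cancer cells. Primary mouse osteoblasts, cultured in alpha-MEM that held fetal calf serum at 10%, were differentiated for 10 days with 50 µg/ml ascorbic acid and 10 mM beta-glycerophosphate. They were then starved of serum overnight. One culture received medium conditioned by MDA-PCa2b cells and the other medium conditioned by PC-3 cells, each for 6 hours; the PC-3 array was identified by its source description, since its title carries both "MDA" and "PC-3", and every direction below rests on that. Both cell lines come from bone metastases of human prostate cancer, and in bone MDA-PCa2b typically forms new bone whereas PC-3 destroys it. The sources used here do not give mouse strain, age, genotype or the number of animals behind each culture, and osteoblasts without tumour-cell medium were not analysed here. "Higher" and "lower" therefore mean the PC-3 medium array against the MDA-PCa2b medium array. RNA of each culture was hybridised to 1 array, so there were no replicates, no test between the media was possible, and the culture, the array and the medium cannot be told apart.

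Cytokines such as interleukin-6 or growth hormone bind receptors that carry Janus kinases (JAKs), which phosphorylate STAT transcription factors. Activated STATs switch on SOCS genes, and the SOCS proteins bind the same receptors or kinases, block them, and use their SOCS box to recruit elongins B and C and a cullin ubiquitin ligase that marks the bound protein for degradation. Socs3 is the classical target of STAT3 and brakes the receptor chain shared by the interleukin-6 family, Cish and Socs2 are classical targets of STAT5 that brake growth hormone and related receptors, and Socs1 brakes interferon receptors. Socs4 and Socs5 are better known for acting on the epidermal growth factor receptor, and Socs6 and Socs7 for binding insulin-pathway proteins.

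Ratios below are differences of log2 signal, PC-3 medium minus MDA-PCa2b medium, after signals below the median of their array were set to that median, the floor (56.7 for MDA-PCa2b medium, 57.7 for PC-3 medium). Where 2 signals are given without a medium, MDA-PCa2b medium comes first. The labelled cell type was checked first. The 7 osteoblast markers with a probe set of their own passed the floor in both media, among them the mineral-binding matrix protein gene Ibsp (signal 17106 on the MDA-PCa2b medium array, 15794 on the PC-3 medium array) and the osteoblast transcription factor gene Sp7 (1469 and 919, log2 ratio -0.68). By their brightest probe sets all 7 had log2 ratios below 0, as did 5957 of the 10649 genes measured in both media. The median of the 7 markers was -0.10 against -0.04 over all genes, and the collagen gene Col1a1 lay at -0.004. Other measured probe sets gave 0.03 and 0.33 for Sparc, but -0.15 for Col1a1, -0.59 and -0.08 for Col1a2 and -0.36 for Ibsp. Macrophage markers were not at 0: all 7 passed the floor in both media, with a summed signal of 14976 in MDA-PCa2b medium against 15408 in PC-3 medium and log2 ratios from -0.19 to 0.82. The sum came mostly from Lyz2 (9194 and 9416). Of the 7 ratios, 6 were above 0 and 1 below, with a median of 0.17, where 44.1% of all genes were above 0. The 5 endothelial markers were below the floor on both arrays, as were 5 of 6 lymphocyte and 3 of 4 skeletal muscle markers. Both adipocyte markers, Adipoq and Fabp4, were above it, with a summed signal of 366 and 661. All 4 chondrocyte markers were above it too, with sums of 5619 and 4958, mostly from the cartilage collagen gene Col2a1 (4471 and 4162). Their log2 ratios were all below 0, with a median of -0.35, and Col10a1, the collagen gene of hypertrophic cartilage, was 2.61-fold lower (204 and 78.1), the only marker of these lists past 2-fold. Of the 5 osteoclast markers, 2 passed the floor in both media, Acp5 (225 and 306) and Ctsk (7420 and 7336). Calcr, Ocstamp and Dcstamp were below it on both arrays. SOCS genes are also expressed in macrophages, whose part in the values below was not tested, and neither was that of chondrocytes. The markers named here were picked with their values in view. In RNA of a whole culture, fewer cells of a type and less RNA per cell cannot be told apart.

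Among the SOCS family genes, Socs3 was higher and Socs2 lower in PC-3 medium, each by more than 2-fold by its brightest probe set, while the other 6 lay within 1.5-fold. By its brightest probe set every member passed the floor in both media, as did 17 of the 24 probe sets. Thus 1 of the 8 genes passed 2-fold upwards and 1 downwards. For all 10649 genes that passed the floor in both media, the share at least 2-fold higher was 1.9%, the share at least 2-fold lower 1.68%, and the share in either direction 3.58%. A difference of at least 1.5-fold was seen for 11.4% of them. With 8 genes such counts are too small to set the family apart. The median log2 ratio of the members was 0.06, against -0.04 over all genes. Where a gene had several probe sets, their log2 ratios scattered with an SD of 0.24 (4924 genes), which makes 0.34 for the difference of a pair of ratios. That scatter comes from a single pair of arrays, with no spread between cultures in it.

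**Figure D1:**
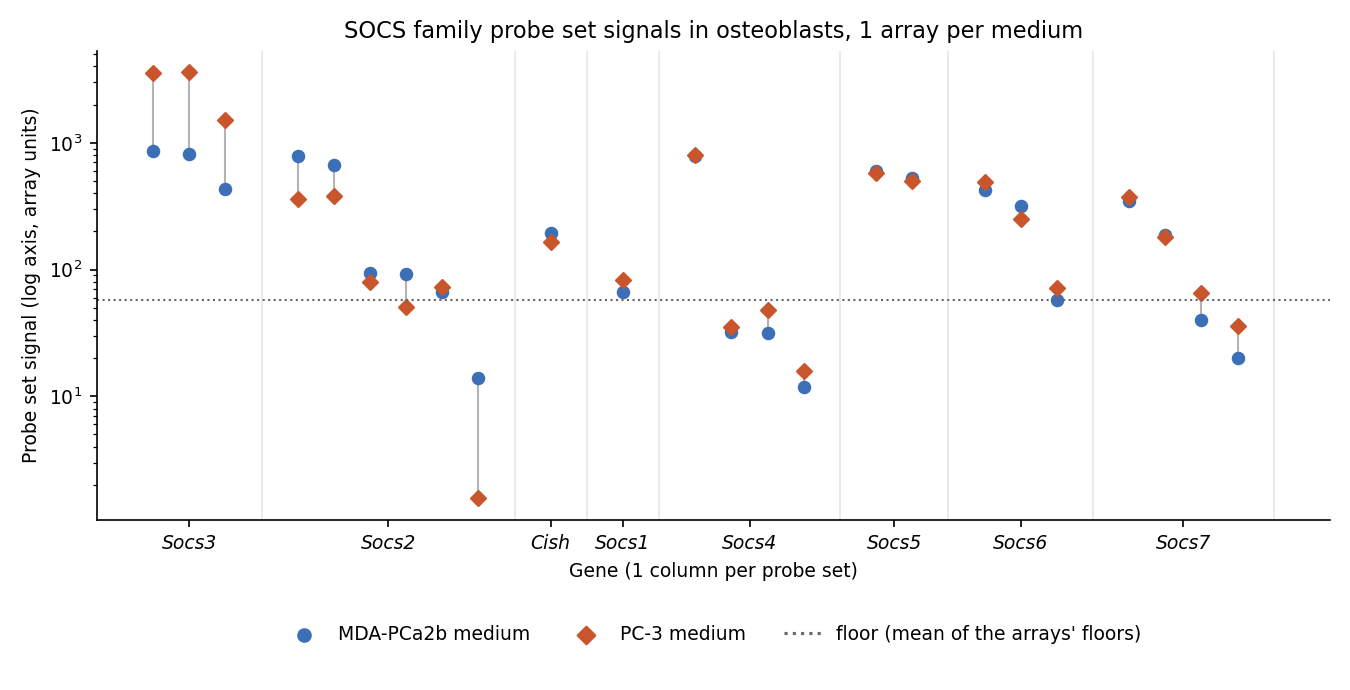
Signals of all 24 SOCS family probe sets, with 1 column per probe set, grouped by gene, on a log axis in array units; circles are the array of MDA-PCa2b medium, diamonds the array of PC-3 medium, and the dotted line the floor. All 3 Socs3 probe sets are higher in PC-3 medium and the brightest pair of Socs2 is lower, while the bright probe sets of Socs4, Socs5 and Socs7 nearly coincide.

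Socs3, the STAT3-induced brake on the interleukin-6 receptor complex, was represented by 3 probe sets. The brightest, 1456212_x_at, read 818 in MDA-PCa2b medium against 3613 in PC-3 medium, 4.42-fold higher (log2 ratio 2.14). The probe set 1455899_x_at gave 856 and 3560, 4.16-fold higher, and 1416576_at gave 429 and 1500, 3.50-fold higher. All 3 were thus higher with PC-3 medium, with log2 ratios between 1.81 and 2.14 (mean 2.002, SD 0.17 over the 3 probe sets). The suffix _x_at marks a probe set whose probes can match other transcripts, so the value of 1.81 from 1416576_at is the one free of that. Of all 10649 genes compared, 27 had a higher ratio than Socs3, or 0.254%.

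Socs2, the STAT5-induced brake on growth hormone signalling, was represented by 6 probe sets that did not all show the same ratio. The brightest, 1449109_at, read 782 in MDA-PCa2b medium against 363 in PC-3 medium, 2.16-fold lower (log2 ratio -1.11). The second brightest, 1418507_s_at, gave 670 and 384, 1.75-fold lower (-0.81). Both bright probe sets were thus lower with PC-3 medium, but only the first passed 2-fold. The others were dim. The probe set 1438470_at gave 94.4 and 79.9 (-0.24), and 1446085_at gave 66.5 and 73.1 (0.14). With PC-3 medium 1442586_at was below the floor, which makes its 92.9 and 50.6 a bound of at least 1.61-fold lower. The last, 1441476_at, was below the floor on both arrays and gives no ratio. The log2 ratio averaged over the 4 measured probe sets was -0.50 (SD 0.56), which does not reach 2-fold. Of all 10649 genes, 127 had a lower ratio than the brightest Socs2 probe set, or 1.19%.

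Cish, the other STAT5-linked member, had 1 probe set, which read 195 in MDA-PCa2b medium against 166 in PC-3 medium, 1.17-fold lower (log2 ratio -0.23). That difference is no larger than the scatter between probe sets, and 24.0% of all genes had a lower ratio. Socs2, by its brightest probe set, and Cish were both below 0, as were 5957 of all 10649 genes. By the brightest probe sets the log2 ratio of Socs2 minus that of Cish was -0.88. Socs1, the brake on interferon receptors, also had 1 probe set, which read 66.7 and 82.0, 1.23-fold higher (0.30). Both signals were close to the floor, so little can be read from that ratio, and 14.4% of all genes had a higher one.

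The members linked to growth factor and insulin receptors differed little between the media. Socs4 had 1 bright probe set, 1455142_at, with signals of 790 and 802 (log2 ratio 0.02). Its other 3 probe sets were below the floor on both arrays, with signals between 11.8 and 47.6. Socs5 had 2 probe sets, with signals of 599 and 582 by 1423349_at (-0.04) and of 524 and 497 by 1423350_at (-0.08). For Socs4 and Socs5 every measured probe set was within 1.06-fold. Socs7 gave 347 and 372 by its brightest probe set (0.10) and 189 and 179 by the second (-0.07), on opposite sides of 0. Another Socs7 probe set passed the floor on the PC-3 medium array only (39.9 and 64.9), and the last passed it on neither (20.1 and 35.6). Socs6 was the member of this group with the most scatter. Its brightest probe set, 1450129_a_at, gave 428 and 487 (0.19), 1435492_at gave 319 and 253 (-0.34), and 1452764_at gave 57.9 and 70.9 (0.29), the first of these signals lying just above the floor. The direction of Socs6 thus depended on the probe set.

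**Figure D2:**
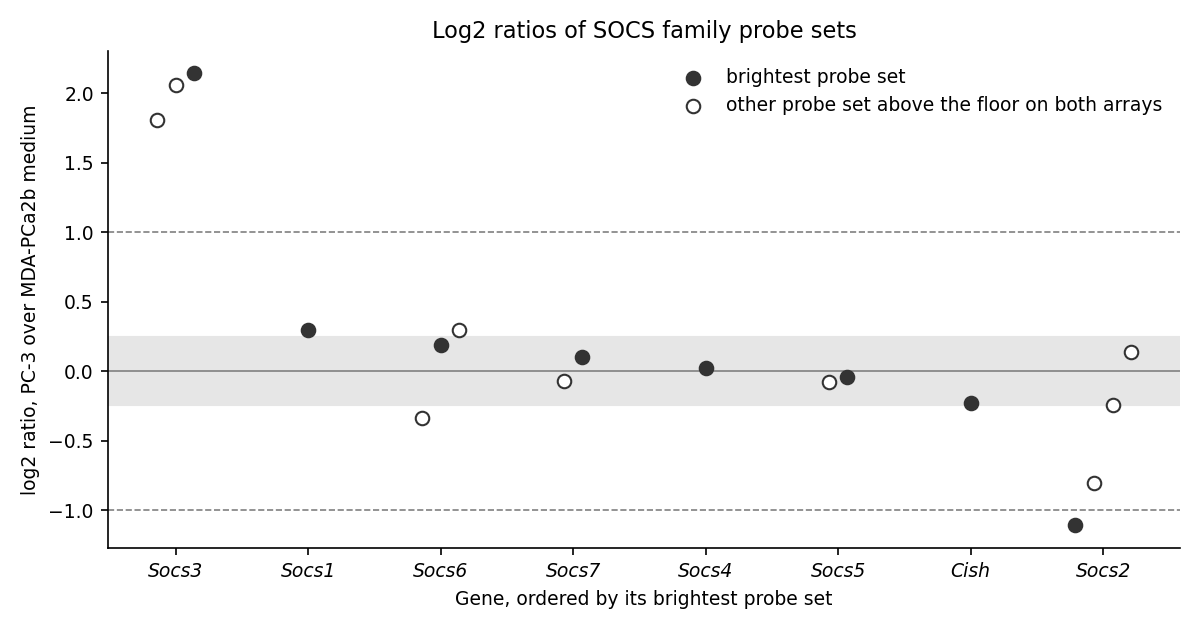
Log2 ratios of the 17 SOCS family probe sets above the floor on both arrays, by gene; filled points are the brightest probe set of a gene, open points its others, dashed lines mark 2-fold and the grey band is the SD between probe sets of a gene (0.24) on either side of 0. The 3 Socs3 points lie between 1.81 and 2.14, the Socs2 points spread from -1.11 to 0.14, and most others lie in or near the band.

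Ordered by ratio, the family ran Socs3, Socs1, Socs6, Socs7, Socs4, Socs5, Cish, Socs2. From Socs1 down to Cish, neighbours differed by 0.06 to 0.19 on the log2 scale, less than the 0.34 that probe set scatter gives for a difference, so their order is not resolved. The steps between Socs3 and Socs1 (1.85) and between Cish and Socs2 (0.88) were larger than that by the brightest probe sets. With the Socs2 probe sets averaged, the step between Cish and Socs2 was 0.28. The 0.34 is for a pair of single probe sets and does not apply to an average. Because the Socs2 probe sets themselves had an SD of 0.56, that step is not taken as resolved either. The STAT3-linked member thus differed from both STAT5-linked members by more than probe set scatter: the log2 ratio of Socs3 exceeded that of Socs2 by 3.25, a 9.53-fold difference between the ratios, and that of Cish by 2.37 (5.18-fold). Taking each of the 3 Socs3 probe sets against each of the 4 measured Socs2 probe sets, the difference was above 0 in 12 of 12 pairs and ranged from 1.67 to 3.25. The pairs share probe sets and arrays and are not independent. No test of the difference was possible with 1 array per medium.

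**Figure D3:**
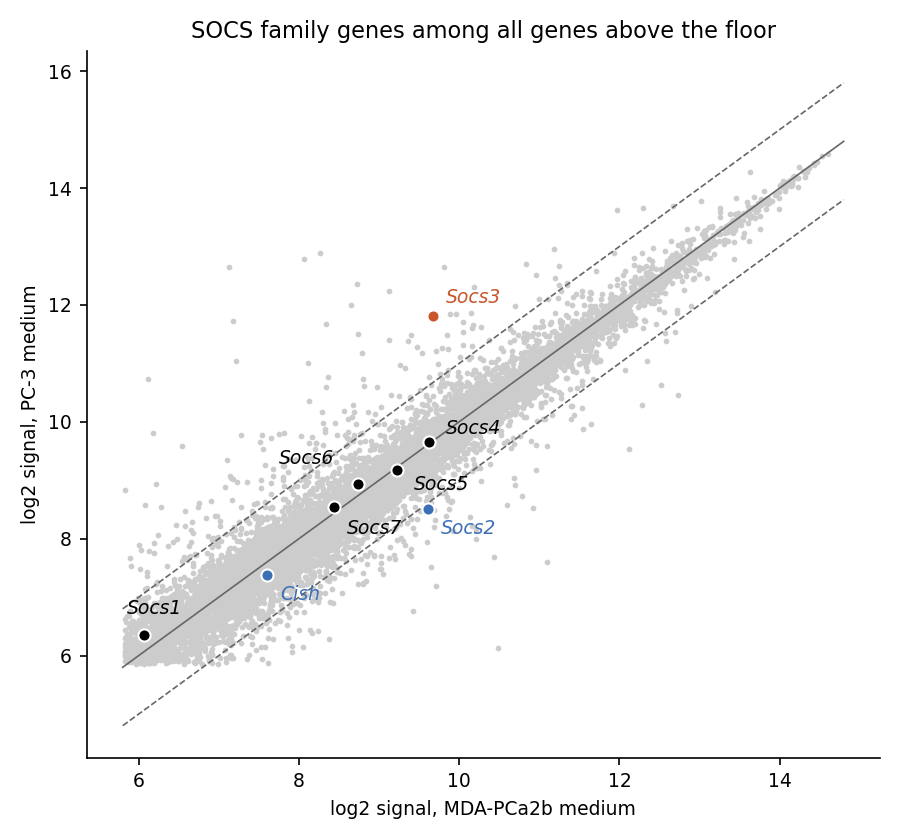
Log2 signal of the 10649 genes that passed the floor in both media, MDA-PCa2b medium on the horizontal and PC-3 medium on the vertical axis, with the 8 SOCS family genes labelled; the solid line marks equal signal and the dashed lines 2-fold. Socs3 lies above the upper dashed line, Socs2 just below the lower one and the other 6 between them.

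STAT dimers are known to bind the palindrome TTCNNNGAA, and promoter windows of the STAT-induced members are shown so that the STAT3-linked and a STAT5-linked gene can be read beside their ratios. RefSeq windows (GRCm38.p6, 250 bases before to 50 after the annotated start) were matched for 4 of the 8 members: Socs1, Socs3, Socs4 and Cish. The 250 bases before the start are printed 5′ to 3′ on the gene's strand, with matches to the motif in capitals. The Socs3 window is chr11:117969367-117969616 on the minus strand and the Cish window chr9:107296409-107296658 on the plus strand. The line for the Cish site gives chr9:107296657-107296680, which runs across the start.
Socs3: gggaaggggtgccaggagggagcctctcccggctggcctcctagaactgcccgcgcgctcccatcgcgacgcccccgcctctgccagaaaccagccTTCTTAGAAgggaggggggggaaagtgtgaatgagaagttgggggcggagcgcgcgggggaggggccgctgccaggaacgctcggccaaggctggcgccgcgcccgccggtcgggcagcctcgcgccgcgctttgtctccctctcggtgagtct
Cish: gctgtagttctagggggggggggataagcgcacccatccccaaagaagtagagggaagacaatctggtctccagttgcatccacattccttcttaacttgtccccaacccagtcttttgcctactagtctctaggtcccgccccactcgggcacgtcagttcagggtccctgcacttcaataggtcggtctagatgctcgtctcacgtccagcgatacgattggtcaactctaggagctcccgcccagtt
Cish site: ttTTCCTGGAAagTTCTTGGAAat

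The motif reads the same on both strands. Socs3 held 1 match, TTCTTAGAA, whose first base lies 154 bases before the annotated start. Cish held 2 matches, TTCCTGGAA beginning at base 1 of the transcript and TTCTTGGAA at base 12. Among 32851 windows of 300 bases, 8.30% held the motif at least once and 0.457% at least 2 times. The Socs1 and Socs4 windows held no match, which says only that these letters are not in the window. A match is only a run of letters. Cish, with 2 matches, had a log2 ratio of -0.23, and Socs3, with 1, had 2.14. Whether the matches bear on these ratios between media was not tested.

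The remaining genes of the pathway were read from 9 fixed lists, each beside the 3.58% of all genes that differed at least 2-fold and their median log2 ratio of -0.04. The lists overlap, and genes such as Osmr, Stat3, Il6st and Il4ra count in more than a single list. Among 10 measured ligands and receptors of the STAT3 branch, 4 were at least 2-fold higher and 0 lower (median 0.62, or 0.37 with log2(signal + 16) in place of the floor): the cytokine genes Il6 (3.48-fold) and Lif (2.10-fold), the oncostatin M receptor gene Osmr (2.53-fold) and Il6st, which encodes the receptor chain that Socs3 binds (2.44-fold). Il6 (107 and 372) and Lif (96.9 and 204) were dim with MDA-PCa2b medium. The other Lif probe set did not pass the floor on both arrays. Of the 10, 7 had log2 ratios above 0 and 3 below. Those below, picked with their values in view, were the receptor genes Lepr (-0.50), Cntfr (-0.12) and Lifr (-0.07). The other Lifr probe sets gave -0.89 and -0.27. Signals of Il6st were 1663 and 4053, and the log2 ratio was 1.24 or more by each of its other 3 probe sets. Among 7 measured ligands and receptors of the STAT5 branch, 0 differed 2-fold (median 0.38). The largest log2 ratios were 0.69 for the interleukin-15 receptor gene Il15ra and 0.61 for the cytokine gene Il7. Ghr, the growth hormone receptor gene, read 1730 and 1684 (-0.04), a gene picked with its values in view.

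JAK and STAT genes all lay on the same side: 9 of 9 measured had a log2 ratio above 0, as did 44.1% of all genes, with a median of 0.55, and 0 reached 2-fold. The largest was 0.97 for Stat2, the STAT of the type I interferon pathway. Stat3 itself gave 0.75 by its brightest probe set (1262 and 2121), but -0.12 and 0.27 by its other probe sets above the floor in both media. Stat5a (305 and 387, log2 ratio 0.34) and Stat5b (256 and 313, 0.29) were picked with their values in view. Both STAT5 genes thus had log2 ratios above 0, each larger than the probe set SD of 0.24.

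Other brakes on the pathway, such as phosphatases and PIAS proteins, mostly differed little: of 14 measured, 1 was at least 2-fold higher and 0 lower (median 0.07). That gene was Ptpn2, which encodes a phosphatase of JAKs and STATs (2038 and 4377, 2.15-fold). Its other probe sets above the floor in both media gave 0.32 and 1.10 on the log2 scale. The partners that the SOCS box recruits were nearly level. Of 7 measured, 0 differed 2-fold, the median was -0.09, and the lowest log2 ratios were those of the cullin genes Cul2 (-0.25; -0.57 by its other probe set) and Cul5 (-0.20; 0.05 and 0.32 by its other probe sets). Of 26 genes of other SOCS box proteins 13 passed the floor in both media and 13 in neither. Among the 13 measured, 1 was at least 2-fold higher and 0 lower (median 0.03). It was Spsb1, which encodes a SOCS box adaptor for the inducible nitric oxide synthase (377 and 1162, 3.08-fold). Its other probe sets above the floor in both media gave 1.21 and 1.78 on the log2 scale. Of 17 measured receptors and substrates that SOCS proteins are known to bind, 2 were at least 2-fold higher and 0 lower (median 0.34): Il4ra, the interleukin-4 receptor gene (137 and 652, 4.75-fold), and Il6st. Il4ra also counts among the STAT3 response genes, and Il6st among the ligands and receptors of the STAT3 branch.

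Response genes of STAT3 and STAT5 were read beside the members linked to them. Of 20 measured STAT3 response genes, 11 were at least 2-fold higher and 0 lower, with a median log2 ratio of 1.03 beside the 2.14 of Socs3. The largest were those of the acute-phase gene Saa3 (24.8-fold) and the metalloreductase gene Steap4 (10.1-fold), and as bounds Serpina3n, the gene of a serine protease inhibitor (at least 12.9-fold) and Lcn2, the lipocalin gene whose product binds siderophores (at least 8.44-fold). This list was drawn up with earlier results of these arrays known and is no independent evidence of direction. Of 9 measured STAT5 response genes, 0 differed 2-fold, 6 were above and 3 below 0 (44.1% of all genes were above 0), and the median was 0.22. A floor at the 75th percentile turned this median to -0.15. The largest log2 ratios were 0.98 for the kinase gene Pim1 and 0.85 for Tnfsf11, the RANKL gene, whose product induces osteoclasts. The lowest, picked with their values in view, were those of the cyclin genes Ccnd1 (-0.69, with -1.11 and -0.80 by its other probe sets) and Ccnd2 (-0.47). Igf1, the best known growth hormone target, read 5471 and 5577 (0.03), also picked with its values in view. Pim1 and Mcl1, 2 of the 9, are also in the STAT3 list, and the median of 0.22 is the log2 ratio of Mcl1 itself. Bcl2l1, picked with its values in view, gave 0.23 by its brightest probe set but -0.35 and -0.13 by its other measured probe sets. Many of these genes respond to other factors too, such as NF-kB, so a list does not measure the activity of its STAT.

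**Figure D4:**
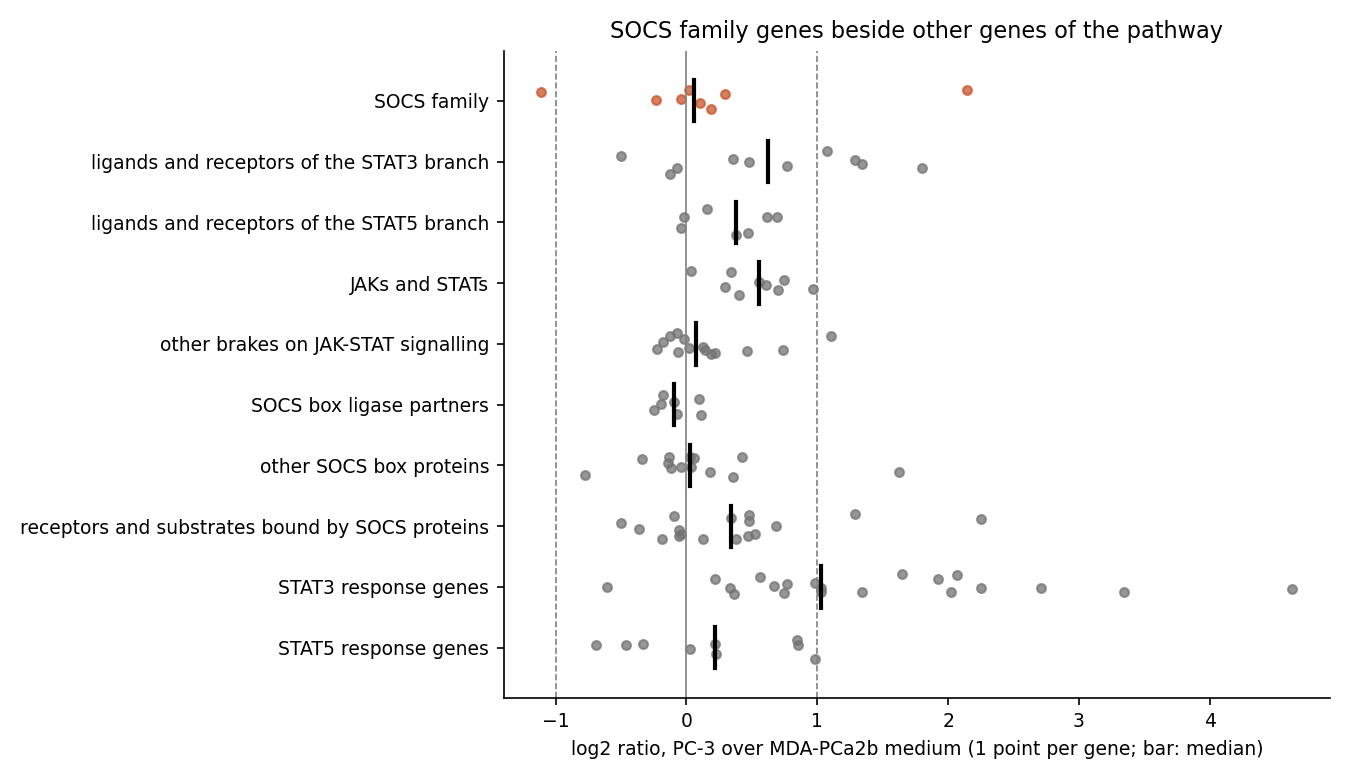
Log2 ratios of the SOCS family genes and of the measured genes of 9 pathway lists, with 1 point per gene by its brightest probe set; vertical bars are medians, dashed lines mark 2-fold, and the vertical scatter within a row only separates points. SOCS family genes spread from -1.11 to 2.14 around a median of 0.06, beside medians of 1.03 for STAT3 and 0.22 for STAT5 response genes.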

How the data were processed

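The data are 2 Affymetrix arrays of total RNA from primary mouse osteoblasts, 1 per medium. Samples were grouped by the source description in the labels. The submitters' processing notes name GCOS 1.4 and MAS5 as the software of the deposited values, which are signals of probe sets (linear intensity). For detection calls, background settings and the scaling target, nothing is given in the sources used here. The mean without the lowest and highest 2% was 300.002 on both arrays, so the arrays had been scaled to a common mean.

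From these values, 64 control probe sets of 45101 were left out. The 50th percentile of each array (56.7 with MDA-PCa2b medium, 57.7 with PC-3 medium) served as a floor to which lower signals were raised before log2 was taken. Ratios are PC-3 medium minus MDA-PCa2b medium on the log2 scale, and a ratio with 1 array at the floor is a bound. For comparisons between genes each gene was represented by its brightest probe set (highest mean of the arrays). The floor is an arbitrary limit and no call of presence. The annotation gave 34958 probe sets a single gene symbol. Of these, 34754 were matched by Entrez identifier to RefSeq genes (GRCm38.p6), which changed 0 symbols.

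All 8 members were named with every probe set. In each of 9 pathway lists the rule named the genes at least 2-fold different, at most the 4 largest, bounds included, or the 2 largest where none was. The rule also foresaw the genes nearest to a member in their pair of signals; they are not given, since that distance depends on probe brightness. Other named genes are said to be picked with their values in view. Lists of a further branch of the pathway are not reported here. The members and lists were chosen with earlier results of these data known. The number of arrays limits the precision: 1 array per group allows neither a standard error nor a test of the media. The only error available was the scatter between probe sets of a gene. Alternatives were other floors (25th and 75th percentiles), log2(signal + 16), quantile normalization, centring on the median ratio, averaging probe sets, omitting those that may match more than 1 transcript (suffix _s_at, _x_at or _a_at), and thresholds of 1.5-fold and 3-fold. Scripts (Python 3.11.15, numpy 2.4.6, pandas 2.3.3) were tested on simulated data.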

Additional observations from a re-analysis of the deposited data

How the results depend on the processing

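Across the alternatives, Socs3 kept a log2 ratio between 1.81 and 2.18, Socs2 between -1.11 and -0.50 and Cish between -0.23 and -0.19. The difference of Socs3 and Socs2 was 2.51 instead of 3.25 with probe sets averaged and 2.92 without probe sets that can match several transcripts. The difference of Socs3 and Cish was 2.04 instead of 2.37 without such probe sets. Socs2 no longer counted as at least 2-fold lower with probe sets averaged or at a threshold of 3-fold, which left 0 members lower. Socs6 turned from 0.19 to -0.34 when probe sets that can match several transcripts were left out. The median of other SOCS box proteins also changed sign there, from 0.03 to -0.08, but by less than the probe set SD of 0.24. The median of STAT5 response genes moved from 0.22 to -0.15 with a 75th percentile floor, and that of STAT3 branch ligands and receptors from 0.62 to 0.37 with log2(signal + 16). Socs1 and Cish were not above the 75th percentile floor, so no ratio was given for them there, and Socs1 has no probe set outside those that can match several transcripts. Counts over all genes moved most: instead of 202 higher and 179 lower a 25th percentile floor gave 426 and 382, a 75th percentile floor 90 and 56, and log2(signal + 16) 527 and 436. A threshold of 1.5-fold gave 552 and 663, and 3-fold gave 79 and 36. A value was taken to have moved when it shifted by more than the probe set SD of 0.24, or a count by more than 1.5 times. No paired analysis was possible because each group had 1 array.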
